A study of Mus musculus with 9 samples.

Results

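Superoxide dismutases, catalase, glutathione peroxidases and NADPH oxidase subunits were examined in mouse kidney as 10 genes chosen by symbol (Sod1, Sod2, Sod3, Cat, Gpx1, Gpx3, Nox4, Cybb, Cyba and Ncf1), out of 55385 genes in the deposited table. All 10 passed the filter on low counts, as did 21392 genes in all. Kidneys of mice labelled C57BL/6 were profiled by poly(A) RNA sequencing in 3 groups of 3 libraries. The Control group was given neither of the inducing agents. Over 4 weeks, hyperuricemic nephropathy (HN) mice received adenine (0.16 g/kg) with potassium oxonate (2.4 g/kg) on alternate days. The PEC group received the same agents together with the flavonoid pectolinarigenin, given daily by mouth. The study used more than 1 dose, the sample labels name none, and a figure legend of the study gives 25 mg/kg for the group sequenced. According to the methods the animals were males of 8 to 10 weeks. HN was compared with Control to describe the disease model, and PEC with HN to describe the treatment. PEC was also compared with Control, and the 3 comparisons share libraries.

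Superoxide dismutases turn superoxide into hydrogen peroxide, and catalase and the glutathione peroxidases then break the peroxide down. NADPH oxidases are membrane enzymes that make superoxide or hydrogen peroxide on purpose. The kidney is known for Nox4, which is abundant in tubule cells, and phagocytes for the oxidase built on Cybb, while plasma glutathione peroxidase Gpx3 is made mainly by the proximal tubule.

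Libraries held between 57714111 and 81069646 counts (median 74397038). Levels of a gene across libraries are given as counts scaled to library size (CPM) with edgeR's TMM factors, and levels of different genes are set side by side in FPKM, the deposited values that are scaled to gene length and library size. Scaling mattered here. TMM left the median log2 fold change of all tested genes in HN against Control at -0.00, whereas library totals alone put it at 0.56, and 85.7% instead of 54.5% of the genes called were then higher. In PEC against HN the corresponding medians were -0.02 and -0.21, with 46.8% and 29.6% of calls higher, and in PEC against Control 0.04 and 0.40, with 52.1% and 76.6% higher. Other alternatives moved the split as well. The share of calls higher in HN against Control was 39.7% with the dependence on gene length removed and 40.8% with that on GC content removed, and in PEC against Control 42.6% and 38.8%. For PEC against HN it was 56.2% with length dependence removed and 58.1% with upper-quartile factors, which gave 63.6% in PEC against Control. Transcripts of the mitochondrial genome took 12.9% to 16.2% of counts in Control, 6.01% to 6.34% in HN and 10.3% to 13.6% in PEC libraries. Genes were called at a fold change of 1.5 or more and an adjusted p (edgeR quasi-likelihood test, Benjamini-Hochberg over all tested genes) of 0.05 or less.

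The tissue label was checked against marker genes, since the extraction text in the labels mentions adipose tissue. Proximal tubule markers were abundant in every library, and the androgen-regulated tubule transcript Kap alone reached 22380 to 37150 CPM in Control. Adipocyte markers stood out in PEC replicate 3, where the 6 listed genes summed to 854.5 CPM against 53.1 to 110.5 CPM in the other 8 libraries. Adipoq, the adipocyte hormone adiponectin, was at 91.8 CPM in PEC replicate 3, at 6.16 CPM in HN replicate 12, at 2.94 CPM in Control replicate 2 and at or below 0.117 CPM in the remaining 6. The 10 genes were therefore also fitted without PEC replicate 3, and the values are given for Sod3, Cat, Gpx1, Gpx3, Cybb, Cyba and Ncf1. The listed genes were not fitted without it. The labels give no batch, so that any difference in handling between the groups and the treatment cannot be told apart.

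In HN against Control, 8 of the 10 genes were called, 6 lower and 2 higher. Among all tested genes 32.4% were called, 14.7% lower and 17.7% higher. The genes that fell were the 3 dismutases, Cat, Nox4 and Cyba, and those that rose were Cybb and Ncf1, which belong to the phagocyte oxidase. On the TMM scale the values of the groups did not overlap for 9 of the 10, against 55.4% of all tested genes. The median log2 fold change of the 10 was -1.18. With library totals 4 of the 10 were called lower, Sod3 and Cyba no longer among them, and 2 higher. Of all 21392 tested genes, 1286 were then called lower and 7708 higher, 42% in all.

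In PEC against HN, 5 of the 10 genes were called, against 28.7% of all tested genes. Sod1, Sod2 and Cat were higher with PEC and Cybb and Ncf1 lower, beside 13.4% and 15.3% of all genes. For 7 of the 10 the groups did not overlap on the TMM scale, against 55.5% of all genes, and the median log2 fold change was 0.22. With library totals 2 of the 10 were called higher and 3 lower, beside 1951 higher and 4631 lower among all 21392 tested genes. In PEC against Control, 6 of the 10 were called, 4 lower (Sod2, Sod3, Cat and Nox4) and 2 higher (Cybb and Ncf1). The background was 36.4% called, with 17.4% lower and 18.9% higher. On the TMM scale the groups did not overlap for 8 of the 10 against 57.3% of all genes. With library totals, or with limma on FPKM, 1 of the 10 was called lower. Among all genes 1960 were then lower with library totals and 1429 to 1919 with limma.

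**Figure D1:**
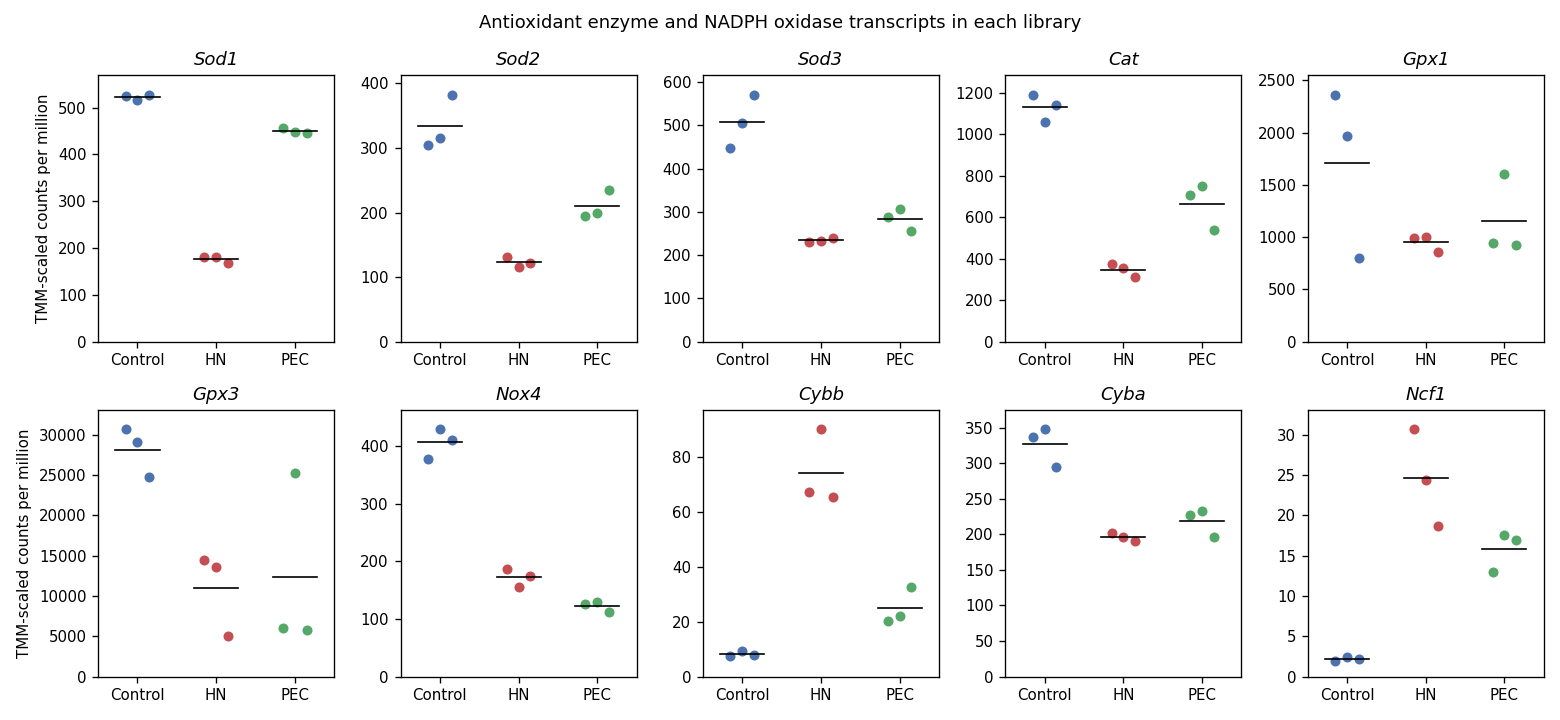
TMM-scaled CPM (vertical axis, linear from 0) of each of the 10 genes in the 3 Control, 3 HN and 3 PEC libraries; points are libraries in the order of their replicate numbers and lines are group means. Sod1 was at 445 to 457 CPM with PEC and at 516 to 528 CPM in Control. Nox4 was lowest with PEC on this scale, and Gpx3 was spread from 5785 to 25260 CPM within the PEC group.

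Sod1 encodes the copper-zinc dismutase of the cytosol and lies at chr16:90220754-90226329 on the plus strand (GRCm38). Its level was 525, 516 and 528 CPM in Control replicates 2, 4 and 5, 182, 181 and 167 CPM in HN replicates 4, 8 and 12, and 457, 448 and 445 CPM in PEC replicates 1, 2 and 3. All 3 HN libraries were far below the others, the replicates of each group lay close together, and no groups overlapped. Sod1 fell by 1.56 on the log2 scale in HN against Control (SE 0.07, edgeR adjusted p = 1.46e-06) and rose by 1.35 in PEC against HN (SE 0.07, adjusted p = 1.01e-05). In PEC against Control the difference was -0.22 (SE 0.07, adjusted p = 0.0279), short of the fold threshold, and with library totals in place of TMM it was 0.14, on the other side of 0. In bulk tissue, fewer cells of a type and less RNA per cell cannot be told apart, here or for any gene below. The gene's end overlaps the antisense gene Scaf4, which held at most 2636 counts beside 15179 to 35533 for Sod1, and without a stated strand setting reads of the shared stretch cannot be assigned.

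Sod2, the manganese dismutase of mitochondria (chr17:13006846-13037398, plus strand), was at 305, 316 and 383 CPM in Control, 132, 115 and 122 CPM in HN and 195, 199 and 235 CPM in PEC libraries. The 3 groups were separate, with PEC between Control and HN. Sod2 fell by 1.44 in HN against Control (log2, SE 0.12, edgeR adjusted p = 1.72e-05) and rose by 0.77 in PEC against HN (SE 0.11, adjusted p = 9.12e-04). The rise was called under 6 of 10 alternative settings and missed the fold threshold with library totals, at 0.57, and with limma on FPKM, at 0.515 to 0.544. It was also lower in PEC than in Control, by a log2 fold change of -0.68 (SE 0.11, adjusted p = 0.00126), which was called under 3 of 10 alternative settings. It was -0.31 with library totals and -0.57 without Control replicate 5, both short of the fold threshold.

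Sod3 encodes the secreted dismutase of the extracellular space (chr5:52363791-52371418, plus strand). Its level was 449, 506 and 571 CPM in Control, 230, 233 and 240 CPM in HN and 289, 306 and 256 CPM in PEC libraries. On the TMM scale every HN library was below every PEC library, but the gap was narrow beside the distance to Control. In FPKM these 2 groups overlapped, at 63.7 to 70.4 in HN and 63.2 to 75.5 in PEC libraries. Sod3 fell by 1.12 in HN against Control (log2, SE 0.11, edgeR adjusted p = 4.04e-05) and the difference of PEC from HN was 0.28 (SE 0.10, adjusted p = 0.0648). In PEC against Control it was lower by a log2 fold change of -0.84 (SE 0.11, adjusted p = 2.18e-04). With library totals the values for HN and PEC against Control were -0.56 and -0.48, short of the fold threshold. PEC against HN was then 0.08 (adjusted p = 0.581), and it was 0.11 (adjusted p = 0.479) with the dependence on GC content removed. It was 0.35 (adjusted p = 0.0317) with the dependence on gene length removed and 0.37 (adjusted p = 0.0286) without PEC replicate 3. No alternative brought it past the fold threshold.

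Within a library the make-up of the dismutase transcripts does not depend on a scaling factor common to all genes. The shares were not recomputed with the dependence on gene length or on GC content removed. In PEC against HN those alternatives moved Sod2 from 0.77 to 1.22 and 1.10, and Sod1 from 1.35 to 1.44 and 1.31 (log2). Sod1 made up 46.7%, 43.8% and 41.0% of the summed FPKM of the 3 dismutases in Control libraries, 38.0%, 38.2% and 35.5% in HN libraries and 54.3%, 52.6% and 54.9% in PEC libraries. Its share was lowest in HN and highest in PEC with no overlap between any groups. Sod3 took the opposite course, with a mean share of 45.1% ± 2.4 in the Control group, 52.4% ± 1.64 in the HN group and 36.1% ± 2.31 in the PEC group (SD, n = 3), again without overlap. The Sod2 share was 11.1% ± 0.63, 10.3% ± 0.66 and 9.98% ± 1.31 (SD, n = 3), and its groups overlapped. For each of the 3 comparisons of the Sod1 and Sod3 shares the two-sided exact permutation p was 0.1, the smallest that 3 against 3 allows, and 0.15 after adjustment over the 18 tests of shares and ratios.

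These levels are per kilobase of all annotated exons. For Sod1 the union of exons was 3970 bases, 6.19 times the 641 bases of its coding transcript, whereas for Sod3 and Cat both lengths were equal. Per kilobase of coding transcript the mean Sod1 share became 80.9% in the Control group, 76.7% in the HN group and 86.3% in the PEC group. For Sod1 the order of the groups was the same on both lengths. The mean Sod2 share on that length was 5.65% in Control, 5.84% in HN and 4.40% in PEC, and its PEC libraries lay below all the others, unlike on the exon union.

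**Figure D2:**
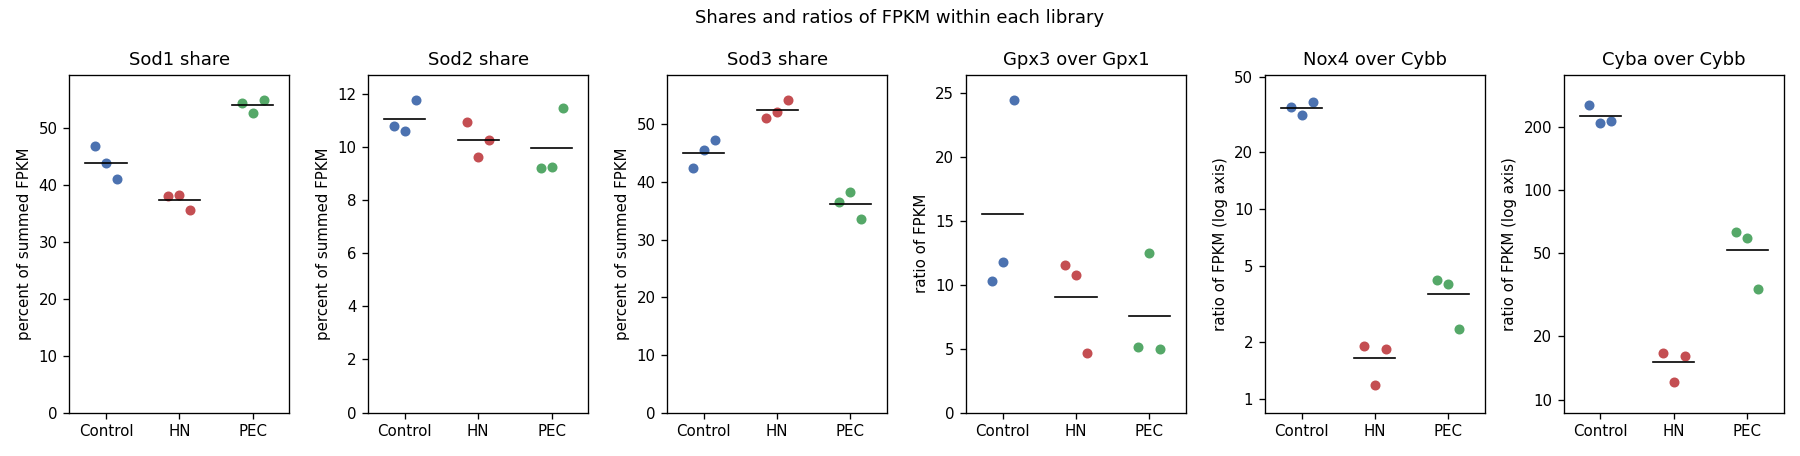
Shares of Sod1, Sod2 and Sod3 in the summed dismutase FPKM (percent, linear axes from 0), the Gpx3 to Gpx1 ratio (linear axis) and the Nox4 to Cybb and Cyba to Cybb ratios (log axes) in each library; points are libraries and lines group means. The Sod1 share is 35.5% to 38.2% in HN and 52.6% to 54.9% in PEC libraries, and the Nox4 to Cybb ratio drops from over 31.4 in Control to under 1.91 in HN.

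Cat encodes catalase, the peroxisomal enzyme that splits hydrogen peroxide into water and oxygen (chr2:103453849-103485160, minus strand). Its level was 1192, 1058 and 1144 CPM in Control, 373, 356 and 312 CPM in HN and 709, 749 and 541 CPM in PEC libraries. The groups were separate, and PEC replicate 3, the library with adipocyte transcripts, was the lowest of its group. Cat fell by 1.71 in HN against Control (log2, SE 0.13, edgeR adjusted p = 1.50e-05), the largest fall among the 10 genes, and rose by 0.94 in PEC against HN (SE 0.13, adjusted p = 6.26e-04). Without PEC replicate 3 that rise was 1.10 (adjusted p = 2.14e-04). PEC was below Control by a log2 fold change of -0.76 (SE 0.13, adjusted p = 0.00133), or -0.41 with library totals, which misses the fold threshold.

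Counts for this and the following lists stand against the shares of all tested genes. These were 17.7% higher and 14.7% lower in HN against Control, and 13.4% higher and 15.3% lower in PEC against HN. List counts and medians are on the TMM scale only and were not recomputed with other settings. With library totals the median of all tested genes in HN against Control was 0.56, and with gene length dependence removed -0.22. Genes called lower then numbered 1286 and 4706, in place of 3154. Of the other peroxisome genes, 28 of 32 were called lower in HN than in Control (14.7% of all genes) and none higher, with a median log2 fold change of -0.90. Ehhadh, an enzyme of peroxisomal fatty acid oxidation, fell by 3.12 (adjusted p = 1.19e-04), and Acaa1b, a thiolase of the same pathway, by 2.62 (adjusted p = 3.80e-04). Of the 32, 11 were called higher in PEC than in HN (13.4% of all genes) and none lower, with a median of 0.32. Pxmp2, a peroxisomal membrane channel protein, rose by 1.31 (adjusted p = 7.03e-04) and Phyh, which starts the breakdown of branched fatty acids, by 1.11 (adjusted p = 9.00e-05).

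Proximal tubule markers moved with Sod1, Sod2 and Cat. Of 12 markers, 11 were called lower in HN and 10 higher in PEC against HN, with median log2 fold changes of -1.90 and 0.99. Their summed level was 35590, 35420 and 51300 CPM in Control, 5216, 6421 and 5768 CPM in HN and 16670, 21490 and 14230 CPM in PEC libraries. Kap, the most abundant marker, fell by 3.40 (adjusted p = 2.95e-05) and rose by 2.02 (adjusted p = 6.87e-04), and the anion transporter Slc22a6 fell by 2.32 (adjusted p = 4.81e-05) and rose by 0.99 (adjusted p = 0.00649). Miox, a tubule oxygenase, fell by 2.32 and rose by 1.94. Red cell genes had the same course, with 5 of 5 tested lower in HN and 5 higher in PEC. They summed to 342.0, 324.6 and 535.7 CPM in Control, 65.3, 50.5 and 37.4 CPM in HN and 255.7, 313.8 and 270.0 CPM in PEC libraries. By mean FPKM the leading gene was the globin gene Hba-a1 in Control and HN and Hbb-bs in PEC. The part of either cell type in the results for the antioxidant enzymes was not tested.

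Gpx1 encodes the glutathione peroxidase of the cytosol (chr9:108338903-108340343, plus strand). Its level was 2364, 1971 and 803 CPM in Control, 990, 1002 and 856 CPM in HN and 943, 1603 and 922 CPM in PEC libraries. Control replicate 5 was below every HN library while the other Control libraries were above all the rest, so the groups overlapped. The log2 fold change was -0.85 in HN against Control (SE 0.36, edgeR adjusted p = 0.0912), 0.28 in PEC against HN (SE 0.36, adjusted p = 0.573) and -0.57 in PEC against Control (SE 0.36, adjusted p = 0.230). The PEC against HN value was -0.03 without PEC replicate 2 and 0.45 (adjusted p = 0.426) without PEC replicate 3. Without Control replicate 5 the values against Control were -1.19 (adjusted p = 0.00525) for HN and -0.91 (adjusted p = 0.0164) for PEC and passed the call rule. HN against Control also passed it with DESeq2 (-0.83, adjusted p = 0.0411) and with GC dependence removed (-1.12, adjusted p = 0.0289), and PEC against Control with GC dependence removed (-0.98, adjusted p = 0.0486). With library totals the values against Control were -0.31 (adjusted p = 0.513) for HN and -0.23 (adjusted p = 0.634) for PEC. Over the 10 alternative settings they ranged from -1.12 to -0.18 for HN and from -0.98 to -0.16 for PEC. Leaving out single libraries brought them to as little as -0.54 and -0.27.

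Gpx3 encodes the secreted glutathione peroxidase of plasma (chr11:54902453-54910377, plus strand) and was the most abundant of the 10 transcripts, with 0.605% to 2.58% of all counts in a library. Its level was 30690, 29140 and 24730 CPM in Control, 14420, 13620 and 5027 CPM in HN and 6045, 25260 and 5785 CPM in PEC libraries. HN replicate 12 was 2.87 times below the highest library of its group, and PEC replicate 2 stood 4.37 times above the lowest of its own and inside the Control range. All HN libraries were below all Control libraries, but PEC overlapped with both groups. The log2 fold change was -1.35 in HN against Control (SE 0.59, edgeR adjusted p = 0.0998), 0.17 in PEC against HN (SE 0.58, adjusted p = 0.849) and -1.19 in PEC against Control (SE 0.59, adjusted p = 0.131). Leaving out PEC replicate 2 turned the PEC against HN value to -0.90 (adjusted p = 0.112) and brought the others past the threshold, at -1.35 (adjusted p = 0.0147) for HN and -2.26 (adjusted p = 0.00312) for PEC against Control. The PEC against HN value was -0.19 without HN replicate 12 and 0.53 (adjusted p = 0.521) without PEC replicate 3. HN against Control was called when fitted without the PEC group (-1.32, adjusted p = 0.0211). With library totals the values against Control were -0.811 (adjusted p = 0.266) for HN and -0.845 (adjusted p = 0.248) for PEC. Without PEC replicate 3, PEC against Control was -0.83 (adjusted p = 0.304). Leaving out single libraries brought HN against Control to as little as -1.01.

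The ratio of Gpx3 to Gpx1 FPKM was 10.3, 11.8 and 24.5 in Control libraries, 11.6, 10.8 and 4.67 in HN libraries and 5.10, 12.5 and 4.99 in PEC libraries. Control replicate 5 had the highest ratio, through its low Gpx1, and the groups overlapped in all 3 comparisons. The exact permutation p of the log2 ratio was 0.4 in HN against Control, 1.0 in PEC against HN and 0.3 in PEC against Control. PEC replicate 2 was the highest and HN replicate 12 the lowest library of its group for both Gpx1 and Gpx3.

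Of 22 other thiol peroxidase, thioredoxin and glutathione genes, 21 were tested. In HN against Control 12 were called lower and 2 higher, with a median log2 fold change of -0.79, and in PEC against HN 5 were higher and 1 lower, with a median of 0.21. Gpx6, a relative of Gpx3, fell by 2.49 (adjusted p = 2.04e-04) and rose by 1.67 with PEC (adjusted p = 0.00244), and the peroxiredoxin Prdx5 fell by 1.70 (adjusted p = 1.46e-06) and rose by 0.93 (adjusted p = 4.85e-05). Txn2, the mitochondrial thioredoxin, was called lower in HN, by -0.92, and rose by 0.96 with PEC. The exceptions were Gpx7 and Gpx8, peroxidases of the endoplasmic reticulum, which rose in HN by 2.80 (adjusted p = 3.30e-05) and 1.34 (adjusted p = 3.30e-04). Gpx7 fell by 0.87 with PEC (adjusted p = 0.0178).

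Dismutases need metal and glutathione peroxidases selenium. Of 12 genes for metal and selenium supply, 7 were called lower and 1 higher in HN against Control (median -0.69), beside 14.7% and 17.7% of all genes. For PEC against HN, 2 were higher and 1 lower (median 0.31), beside 13.4% and 15.3% of all genes. Ccs, the chaperone that loads copper into Sod1, was at 84.6, 79.5 and 66.4 CPM in Control, 33.3, 31.7 and 35.8 CPM in HN and 69.4, 64.7 and 70.2 CPM in PEC libraries. It thus fell by 1.19 (adjusted p = 2.74e-05) and rose by 1.02 (adjusted p = 1.41e-04), in the same directions as Sod1. Sephs2, which makes the selenium donor for selenoproteins, fell by 1.56 in HN (adjusted p = 4.81e-06), and Eefsec, the selenocysteine elongation factor, fell by 0.86 and rose by 0.74. Lrp8, a receptor for selenoprotein P, rose by 1.21 in HN (adjusted p = 0.0194). Atp7a, a copper exporter, differed by 0.15 between HN and Control but fell by 3.63 in PEC against HN (adjusted p = 1.81e-05), from 30.3 to 34.7 CPM to 1.67 to 3.25 CPM.

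**Figure D3:**
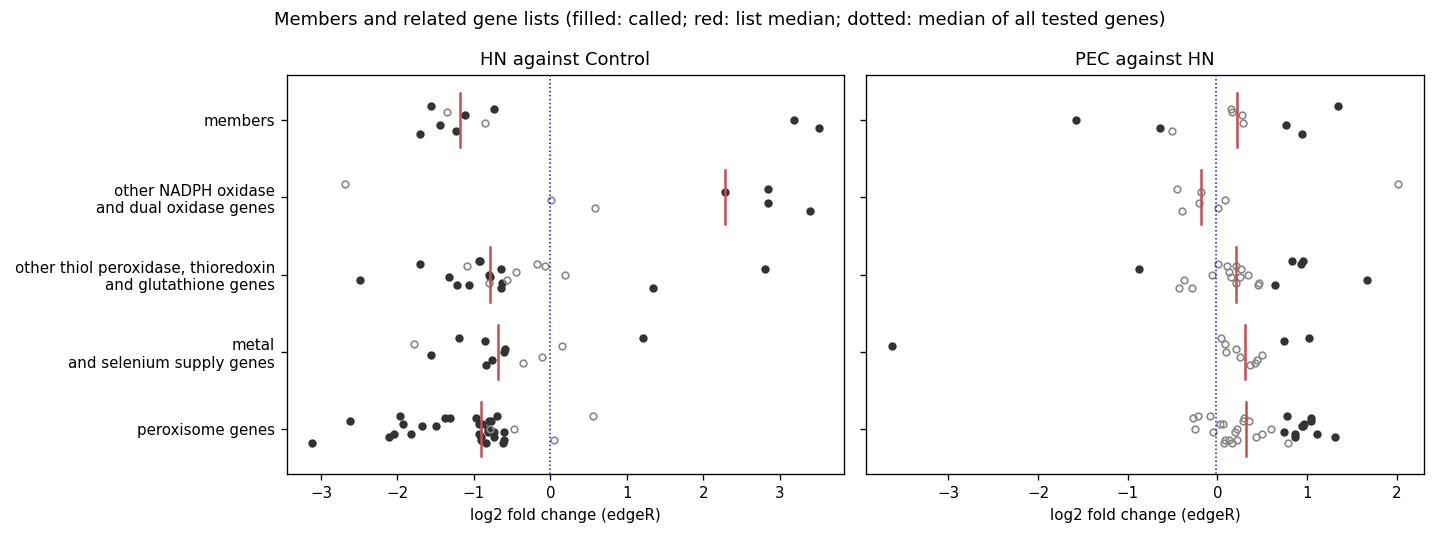
Log2 fold changes (edgeR, horizontal axis) in HN against Control and in PEC against HN of the 10 genes and of 4 lists of related genes; each point is a tested gene, filled where called, red lines are list medians and dotted lines the median of all tested genes. The peroxisome genes have a median of -0.90 in HN against Control. In that comparison Cybb and Ncf1 lie at the right, and the other oxidase genes have a median of 2.28. In PEC against HN, Cybb and Ncf1 were called lower and all 7 other oxidase genes tested were not called.

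Nox4 encodes the constitutively active NADPH oxidase of tubule cells (chr7:87246096-87398710, plus strand). Its level was 378, 429 and 411 CPM in Control, 187, 156 and 175 CPM in HN and 125, 130 and 111 CPM in PEC libraries. The groups were separate and PEC was the lowest, on the TMM scale. Nox4 fell by 1.23 in HN against Control (log2, SE 0.10, edgeR adjusted p = 1.72e-05) and by 1.74 in PEC against Control (SE 0.10, adjusted p = 6.39e-06). The PEC against HN value was -0.50 (SE 0.10, adjusted p = 0.00376), short of the fold threshold. It was -0.70 with library totals, which passes it, and -0.115 (adjusted p = 0.397) with the dependence on gene length removed. It was 0.00 (adjusted p = 0.996) once each library's dependence on transcript GC content was removed, an alternative chosen after seeing the data. PEC against Control was then -1.35.

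The 3 tested genes whose centred log2 CPM differed least from that of Nox4 were Lmbrd2, 2300009A05Rik and Chuk, a kinase of the NF-kappaB pathway, at root mean square differences of 0.07, 0.09 and 0.10 log2 units over 9 libraries.

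Cybb encodes the catalytic subunit of the phagocyte oxidase, also called Nox2 or gp91phox (chrX:9435252-9487771, minus strand). Its level was 7.50, 9.34 and 7.72 CPM in Control, 67.4, 90.2 and 65.5 CPM in HN and 20.2, 22.0 and 32.6 CPM in PEC libraries. Every HN library was above every PEC library, every PEC library was above every Control library, and PEC replicate 3 was the highest of its group. Cybb rose by 3.18 in HN against Control (log2, SE 0.22, edgeR adjusted p = 7.41e-06), a 9.09-fold difference, and fell by 1.58 in PEC against HN (SE 0.20, adjusted p = 4.16e-04). In PEC it was still higher than in Control, by 1.61 (SE 0.21, adjusted p = 2.50e-04). Without PEC replicate 3 the fall with PEC was 1.79 and the excess over Control 1.39. The genes with the nearest course were Thbs2, a matrix thrombospondin, Sulf1, a heparan sulfatase, and Selplg, a selectin ligand of leukocytes, at 0.23, 0.23 and 0.25 log2 units.

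Ncf1 encodes p47phox, the cytosolic organiser that carries the other soluble subunits to the membrane (chr5:134220053-134229625, minus strand). Its level was 1.90, 2.44 and 2.11 CPM in Control, 30.7, 24.4 and 18.7 CPM in HN and 12.98, 17.5 and 16.9 CPM in PEC libraries. All HN and PEC libraries were far above Control, and the lowest HN library lay just above the highest PEC library. Ncf1 rose by 3.51 in HN against Control (log2, SE 0.22, edgeR adjusted p = 5.13e-06), the largest change among the 10 genes, and by 2.88 in PEC against Control (SE 0.21, adjusted p = 1.65e-05). In PEC against HN it fell by 0.64 (SE 0.20, adjusted p = 0.0301). That call was lost without HN replicate 4 (-0.46, adjusted p = 0.111), HN replicate 8 (-0.65, adjusted p = 0.0709), PEC replicate 1 (-0.52, adjusted p = 0.0980) or PEC replicate 3 (-0.67, adjusted p = 0.0538). It was also lost with upper-quartile factors (-0.51, adjusted p = 0.0592) and with the dependence on gene length removed (-0.57, adjusted p = 0.0543). Ncf1 overlaps the antisense gene Gtf2ird2, which held at most 918 counts in a library beside 117 to 152 counts of Ncf1 in Control. Without a stated strand setting the 2 cannot be fully told apart at that level.

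Cyba encodes p22phox, the membrane partner that stabilises both Cybb and Nox4 (chr8:122424776-122432930, minus strand). Its level was 337, 348 and 295 CPM in Control, 202, 196 and 190 CPM in HN and 227, 232 and 196 CPM in PEC libraries. On the TMM scale HN and PEC were below Control in every library, and PEC replicate 3 lay within the HN range. In FPKM both groups overlapped with Control. Its lowest library was at 202.9, and the highest of HN and PEC were at 204.1 and 206.2. Cyba fell by 0.74 in HN against Control (log2, SE 0.09, edgeR adjusted p = 2.54e-04), whereas with library totals the value was -0.18 (adjusted p = 0.166). The PEC against HN value was 0.16 (SE 0.09, adjusted p = 0.223) and turned to -0.04 with library totals. Without PEC replicate 3 it was 0.25 (adjusted p = 0.0645). PEC against Control was -0.58 (SE 0.09, adjusted p = 9.99e-04), just short of the fold threshold. It passed that threshold without Control replicate 5 (-0.65), PEC replicate 1 (-0.61) or PEC replicate 2 (-0.63). With the dependence on gene length or on GC content removed it was -1.0 (adjusted p = 5.98e-05) and -0.92 (adjusted p = 9.86e-05), past the threshold, and with library totals -0.225 (adjusted p = 0.0971).

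The ratios to Cybb within a library moved far more than Cyba itself, as they carry the change of Cybb given above. The ratio of Cyba to Cybb FPKM was 252.2, 207.9 and 213.6 in Control libraries, 16.8, 12.1 and 16.2 in HN libraries and 62.9, 59.1 and 33.7 in PEC libraries. The ratio of Nox4 to Cybb FPKM was 34.7, 31.4 and 36.5 in Control libraries, 1.90, 1.18 and 1.83 in HN libraries and 4.24, 4.05 and 2.34 in PEC libraries. Both ratios were highest in Control and lowest in HN, with PEC between them and no overlap. The log2 ratio of Nox4 to Cybb differed by -4.41 in HN against Control and by 1.09 in PEC against HN, and that of Cyba to Cybb by -3.91 and 1.75. Each exact permutation p was 0.1, the smallest possible, and 0.15 after adjustment.

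Of 13 other NADPH oxidase and dual oxidase genes 7 were tested, since Nox1, Nox3, Duox2, Noxa1, Duoxa1 and Duoxa2 had at most 21 counts in any library, with none for Duoxa1 and Duoxa2. In HN against Control 4 of the 7 were called higher and none lower, with a median of 2.28. They included Ncf4, the p40phox partner of Ncf1, which rose by 3.40 (adjusted p = 1.08e-04), and Noxo1, an organiser related to Ncf1, which rose by 2.85 (adjusted p = 0.00103). In PEC against HN the median was -0.18, with -0.39 for Ncf4 (adjusted p = 0.398), and in PEC against Control 5 of the 7 were higher, beside 18.9% of all genes. Noxo1 was at 0.610 to 0.787 CPM in Control and 4.26 to 6.41 CPM in HN, so its absolute level was low.

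**Figure D4:**
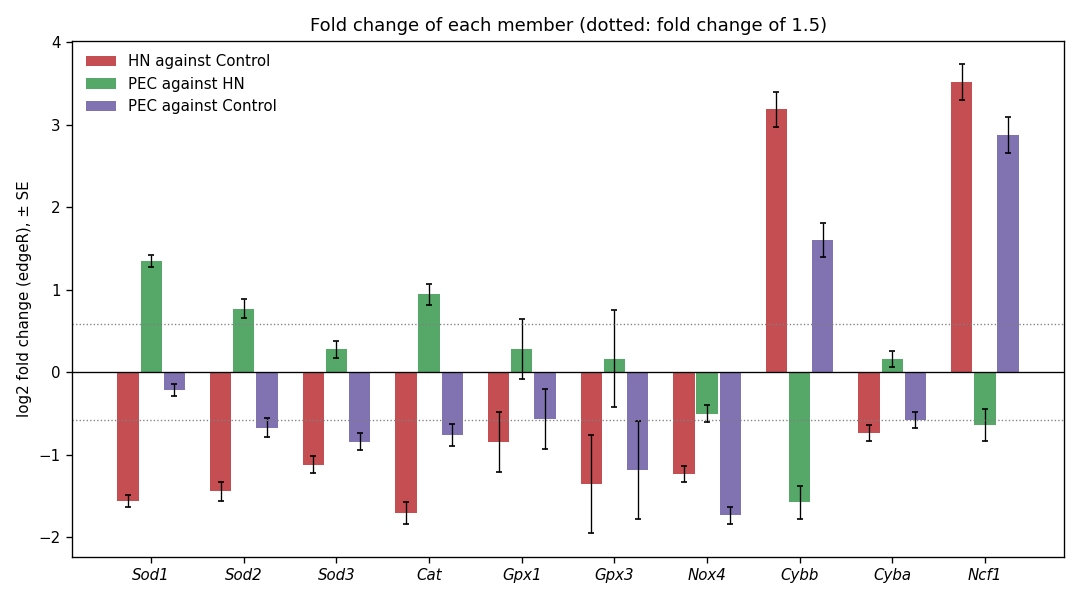
Log2 fold change of each of the 10 genes (bars, with standard error of the edgeR fit) in the 3 comparisons; dotted lines mark the fold change of 1.5 used for a call. Cybb and Ncf1 rise by over 3.18 in HN while Nox4 is lower in both HN and PEC than in Control.

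Macrophage markers moved with Cybb and Ncf1. All 12 of 12 were called higher in HN and 10 were lower in PEC against HN, with median log2 fold changes of 3.74 and -1.15. Their summed level was 133.8, 155.6 and 146.7 CPM in Control, 1867, 1844 and 1597 CPM in HN and 715.9, 775.1 and 972.5 CPM in PEC libraries, and Lyz2 had the highest mean FPKM in each group. Lyz2, the lysozyme of myeloid cells, rose by 4.73 (adjusted p = 2.43e-07) and fell by 1.083 (adjusted p = 8.12e-05). Itgam and Ms4a7 rose by 5.45 and 4.98, and Adgre1 fell by 2.07 with PEC.

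Neutrophil markers were scarce. Of 10 listed genes 6 were tested, and 2 of these were called higher in HN, Csf3r by 2.86 and Cxcr2 by 2.59. In PEC against HN they differed by -0.49 (adjusted p = 0.232) and -1.05 (adjusted p = 0.165). The list summed to 7.48, 14.1 and 5.23 CPM in Control, 36.9, 24.1 and 24.96 CPM in HN and 12.4, 15.5 and 31.8 CPM in PEC libraries. S100a9 had the highest mean FPKM of the list, while Csf3r was above it in CPM in every HN and PEC library. The defining markers Ly6g, Mpo, Elane and Camp had at most 8 counts in any library.

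Of 10 lymphocyte and plasma cell markers, 7 were called higher in HN and 2 lower in PEC against HN, from 10.4 to 22.9 CPM summed in Control to 54.4 to 102.1 CPM in HN and 22.1 to 27.5 CPM in PEC. Jchain, with the highest mean FPKM in each group but below Cd4 in mean CPM in PEC, rose by 2.24 and fell by 3.57, and Cd4 and Cd3e rose by 3.30 and 2.72. All 8 of 8 fibroblast markers were higher in HN and 6 were lower in PEC against HN. They summed to 335.0 to 357.3 CPM in Control, 2406 to 2664 CPM in HN and 1179 to 1399 CPM in PEC, and Col3a1, with the highest mean FPKM in HN but not in Control or PEC, rose by 4.20 and fell by 1.30. The part of these cell types in the results for the oxidase subunits was not tested.

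Vascular and fat markers followed neither course. Of 6 vascular smooth muscle markers, 2 were higher in HN, among them Tagln, with the highest mean FPKM in each group, by 1.16, and Myh11 alone was higher in PEC against HN, by 0.94. Of 8 endothelial markers, 2 were lower in HN, Kdr with a log2 fold change of -1.002 and Flt1 with -0.82, while Plvap was the most abundant. The 1 endothelial marker called higher in PEC against HN, Emcn, was at 67.2, 70.0 and 104.1 CPM in PEC libraries, highest in replicate 3. The most abundant adipocyte marker, Fabp4, differed by -0.24 in HN against Control (adjusted p = 0.830) and by 1.67 in PEC against HN (adjusted p = 0.113). It was at 52.4 to 89.3 CPM in 8 libraries and at 542.8 CPM in PEC replicate 3.

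**Figure D5:**
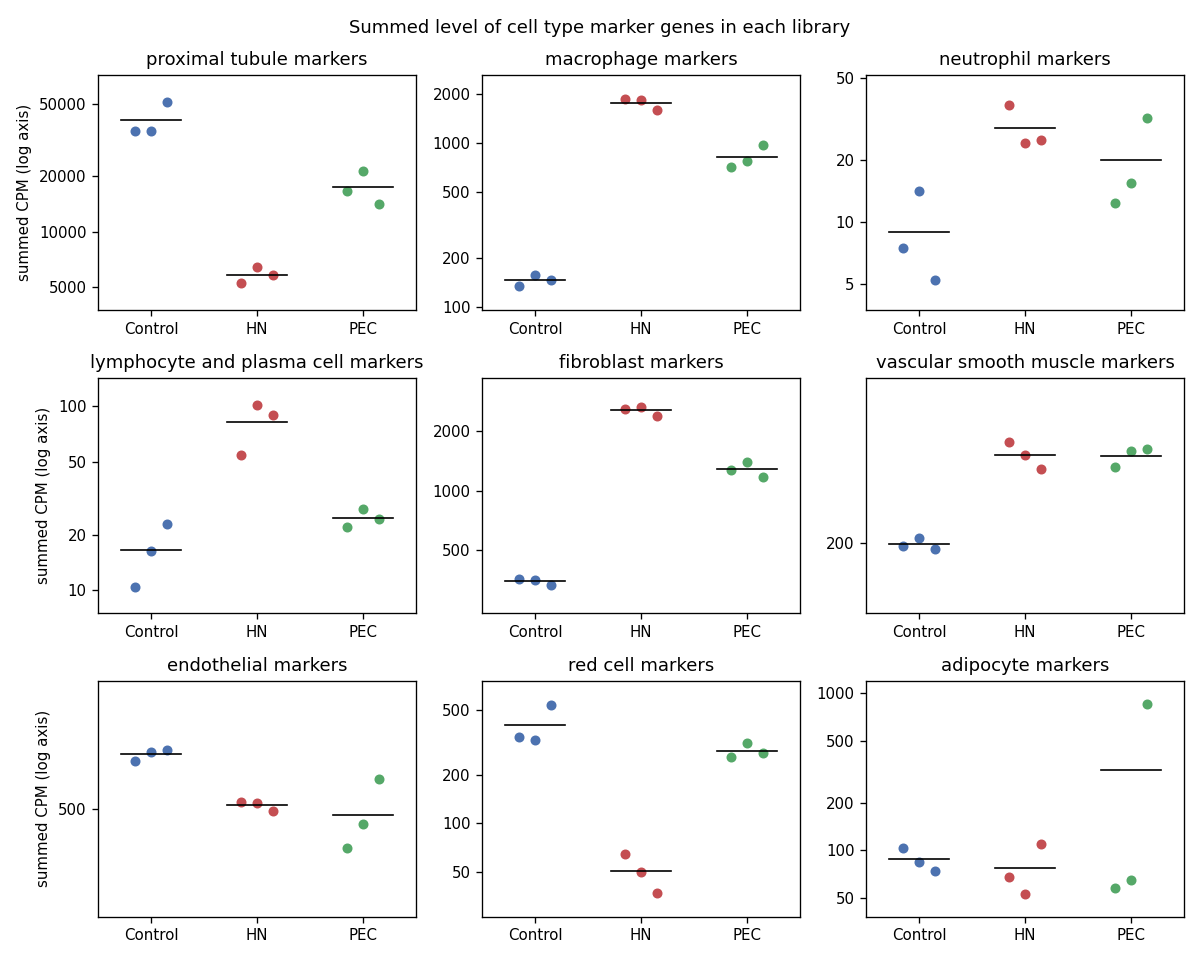
Summed TMM-scaled CPM (log axes) of the genes in each of 9 cell type marker lists in the 3 Control, 3 HN and 3 PEC libraries; points are libraries and lines group means. Proximal tubule markers are at 5216 to 6421 CPM in HN against at least 35420 CPM in Control, macrophage markers run the other way, and the adipocyte list is high in PEC replicate 3 at 854.5 CPM.

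In FPKM the order of the mean levels in Control was Gpx3 at 11530 ± 1549, Gpx1 at 886.5 ± 433.1, Cat at 320.2 ± 17.8, Cyba at 232.9 ± 26.6, Sod3 at 100.5 ± 9.998, Sod1 at 97.4 ± 2.04, Nox4 at 35.5 ± 2.60, Sod2 at 24.7 ± 2.37, Cybb at 1.04 ± 0.15 and Ncf1 at 0.42 ± 0.06 (SD, n = 3). Sod3 and Sod1 did not differ beyond their spread. In HN, Cyba at 201.9 ± 2.02 FPKM was above Cat at 142.0 ± 9.79 FPKM, and Cybb at 13.7 ± 2.67 FPKM was level with Sod2 at 13.2 ± 0.63 FPKM (SD, n = 3). Per kilobase of coding transcript Cybb in HN was at 16.8 ± 3.26 and Sod2 at 22.5 ± 1.1 (SD, n = 3). In PEC, Cybb at 3.95 ± 1.06 FPKM and Ncf1 at 3.96 ± 0.62 FPKM did not differ beyond their spread. Per kilobase of coding transcript Sod1 ranked 3 of the 10 in each group, at 603.5 in Control, above Cyba at 325.2 and Cat at 320.2.

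RefSeq promoters (GRCm38.p6) were matched for 9 of the 10 genes, and the 250 bases before the start were searched on both strands for the antioxidant response element core TGACNNNGC and the PU.1 core GAGGAAGT. The first was in 10.2% of 32851 promoters and, among the 9, in that of Sod1, on the minus strand and beginning 56 bases before the start. The second was in 2.44% of all promoters and in none of the 9. A match is a description of the letters and not a measured binding site. The sequences of 4 of the 9 are given 5′ to 3′ on the strand of the gene, from chr16:90220512-90220761 (Sod1, plus), chr2:103485154-103485403 (Cat, minus), chrX:9469325-9469574 (Cybb, minus) and chr5:134229626-134229875 (Ncf1, minus), with the match in capitals.
Sod1: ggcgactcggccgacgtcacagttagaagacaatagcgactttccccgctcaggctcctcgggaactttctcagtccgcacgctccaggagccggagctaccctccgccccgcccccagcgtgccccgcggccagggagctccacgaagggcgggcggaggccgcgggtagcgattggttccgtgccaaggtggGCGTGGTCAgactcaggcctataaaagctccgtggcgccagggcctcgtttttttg
Cat: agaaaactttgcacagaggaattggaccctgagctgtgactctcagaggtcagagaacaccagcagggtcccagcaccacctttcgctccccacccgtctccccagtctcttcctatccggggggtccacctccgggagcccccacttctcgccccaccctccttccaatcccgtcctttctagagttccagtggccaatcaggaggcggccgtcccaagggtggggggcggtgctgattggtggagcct
Cybb: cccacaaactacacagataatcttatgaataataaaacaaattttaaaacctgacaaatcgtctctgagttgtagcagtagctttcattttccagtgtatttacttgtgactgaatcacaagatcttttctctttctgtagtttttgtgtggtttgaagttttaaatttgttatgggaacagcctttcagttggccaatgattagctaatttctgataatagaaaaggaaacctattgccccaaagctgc
Ncf1: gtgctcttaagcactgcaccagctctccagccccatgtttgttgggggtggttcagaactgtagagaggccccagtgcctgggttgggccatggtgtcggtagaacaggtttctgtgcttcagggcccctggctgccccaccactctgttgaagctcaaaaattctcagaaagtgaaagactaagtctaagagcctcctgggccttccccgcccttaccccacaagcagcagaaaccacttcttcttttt
The bases G and C made up 66.4% of the Sod1, 62.0% of the Cat, 34.0% of the Cybb and 54.4% of the Ncf1 stretch, beside a median of 52.4% over all promoters. The Cybb stretch lies within the gene's deposited coordinates, because the RefSeq start is downstream of the outermost annotated start. Cybb was thus the poorest in G and C of the 9, and Nox4 at 67.2% the richest.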

How the data were processed

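The authors deposited counts of reads per gene as whole numbers without normalization, in 1 table for all 9 kidney libraries. The same table holds FPKM values that the authors computed from those counts, and the lengths they imply were 1.11 to 1.12 times the union of annotated exons for the 10 genes. The submitters' processing notes name Bowtie 0.12.2 and the builds mm8 and mm9, whereas 51954 of 55144 genes shared with GENCODE M21 had its GRCm38 coordinates. The counting program and strand setting are not given in the sources used here.

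Counts were fitted with edgeR 4.0.16 in R 4.3.3 (filterByExpr, TMM, quasi-likelihood test, all 9 libraries in 1 fit). Standard errors were derived from the fold change and its F statistic. Alternatives used DESeq2 1.42.0, limma 3.58.1 on log2 of FPKM, other scalings, filters and call rules, and each library left out. Shares and ratios were tested by exact permutation (scipy, two-sided). The 2 libraries of each pair of replicates differed beyond counting noise, with chi-square per degree of freedom of 59.8 to 205.9. The labels do not say that libraries came from separate mice, so p-values measure the spread between these libraries.

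The procedure was tried on simulated counts into which known differences were built. A first criterion, on the share of all built-in differences that were called, was missed because those at low counts often went uncalled. After that result was seen it was replaced by criteria on direction, fold, false calls and recovery among well-expressed genes, which were met. The differences were built into few genes, as many up as down, and no shift between scalings was simulated. The trial therefore does not bear on the choice of scaling. Sensitivity is therefore lower at low counts, which may include genes at the level of Ncf1 in Control.

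The rule for genes to name was written before the deposited table was opened: the 10 members; from each list the 2 largest rises and falls among called genes in the comparisons of HN with Control and of PEC with HN; the gene of each marker list with the highest mean FPKM over the 9 libraries; and the 3 nearest courses to Cat, Nox4 and Cybb. Not all of these are described in the text. The courses nearest to Cat are not reported here. Adipoq, Scaf4, Gtf2ird2 and the genes too low to test were named after their values were seen. The members and lists were chosen with earlier results of these data known.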

Additional observations from a re-analysis of the deposited data

How the results depend on the processing

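At the call rule used, over 10 alternatives in normalization, model or filter and 9 in which 1 library was left out, the calls of Sod1, Sod2, Cat, Nox4, Cybb and Ncf1 in HN against Control all held, as did those of Sod1, Cat and Cybb in PEC against HN and of Nox4, Cybb and Ncf1 in PEC against Control. Among results on single genes, 501 were on the same side of the threshold as reported, 34 were no longer past it, 17 newly passed it and 18 changed sign.

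With library totals in place of TMM, genes called higher and lower numbered 7708 and 1286 in HN against Control and 6415 and 1960 in PEC against Control, and 1 of the 10 genes was called lower in PEC against Control. The PEC against HN values of Gpx3 and Cyba became -0.0339 and -0.0426, and that of Sod1 in PEC against Control 0.141.

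With limma on log2 of FPKM plus 1, plus 0.1, and plus 1 without a filter, in that order, 1024, 1191 and 991 genes were lower in HN against Control, 1356, 1683 and 1400 higher in PEC against HN, and 1485, 1919 and 1429 lower in PEC against Control. With a pseudocount of 0.1, 5906 were higher in HN against Control. Of the 10 genes 1, 1 and 1 was lower in PEC against Control. Gpx3 in PEC against HN was -0.270, -0.271 and -0.270, Cyba -0.0636, -0.0639 and -0.0636, and Sod1 in PEC against Control 0.0984, 0.0992 and 0.0984.

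At a fold change of 2, 1902 genes were lower in HN against Control, 1771 higher and 1823 lower in PEC against HN, and 2089 lower in PEC against Control. Of the 10 genes, 1 was then higher and 1 lower in PEC against HN, where Cat at 0.94 was no longer called, and 1 lower in PEC against Control. With upper-quartile factors, and with gene length dependence removed, 1 was lower in PEC against HN, beside 2583 and 2429 of all genes. In the latter setting PEC against HN for Cyba was -0.163. With GC dependence removed, chosen after seeing the data, Gpx3 was -0.00203 and Nox4 0.000883 in PEC against HN.

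Leaving out each library in turn gave 1 to 2 of the 10 genes lower in PEC against HN, beside 2794 to 3405 of all genes. Values in that comparison were -0.0318 to 0.446 for Gpx1 and -0.903 to 0.527 for Gpx3. A left-out library can leave 2 in its group, whose spread is pooled with the other groups. The cause of these differences was not tested. No paired analysis was possible because the groups share at most 1 replicate number. Ncf1 in Control, at 117 to 152 counts, was the least covered of the 10 genes.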
